A study of Mus musculus with 2 samples.

Results

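The genes examined were Mef2a, Mef2c, Mef2d, Myocd and Srf, which encode the Mef2 transcription factors, myocardin and serum response factor. They were followed through a list of genomic regions called as Isl1 peaks in the mouse embryo. The peaks of a gene were the entries of that list that carried its symbol. Of the 5 genes, 4 had at least 1 peak, and these 4 genes held 15 of the 48295 peaks. Chromatin immunoprecipitation and sequencing (ChIP-Seq) had been performed on the cardiogenic mesoderm and heart region of C57BL/6 embryos at E8.25-E9, pooled in lots of 60 to 80, with a monoclonal antibody against Isl1. The peak list came from 1 ChIP sample, and the values of the matching input chromatin were not analysed here. For each peak the list gave the position on the mm9 genome, the closest transcription start site (TSS), the distance to it and the gene, but no height and no p-value, and the sequencing depth behind a peak is unknown. No test between conditions was therefore possible, and the values of the 15 peaks were set beside those of all peaks.

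Mef2 proteins and Srf belong to the MADS-box family of DNA-binding factors. Mef2 proteins bind an A/T-rich element in the control regions of muscle genes, Srf binds the CArG box, and myocardin is a coactivator that joins Srf to switch on cardiac and smooth muscle genes. Isl1 is a LIM-homeodomain factor of second heart field progenitors, which build the outflow tract and the right ventricle, and an enhancer of Mef2c that is active in the anterior heart field is known to carry Isl1 and GATA sites.

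The DNA under these peaks carried simple repeats made of purines on one strand and pyrimidines on the other. The 200-bp windows around the peak midpoints are shown for peaks of Mef2c, Mef2a and Mef2d, with long and short runs, and for 2 peaks that lie in Mef2c or next to Myocd but carry another gene's name, 5′ to 3′ on the + strand of mm9. Capitals mark the longest uninterrupted run of purines (A, G) or of pyrimidines (C, T) in the window.
Mef2c peak 269.9 kb upstream, chr13:83373037-83373236: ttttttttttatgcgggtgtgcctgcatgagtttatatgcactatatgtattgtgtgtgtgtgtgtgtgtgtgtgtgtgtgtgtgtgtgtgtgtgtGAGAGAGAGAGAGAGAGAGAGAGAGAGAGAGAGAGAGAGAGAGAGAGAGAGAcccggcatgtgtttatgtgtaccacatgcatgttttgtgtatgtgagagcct
Mef2c peak 396.0 kb upstream, chr13:83246914-83247113: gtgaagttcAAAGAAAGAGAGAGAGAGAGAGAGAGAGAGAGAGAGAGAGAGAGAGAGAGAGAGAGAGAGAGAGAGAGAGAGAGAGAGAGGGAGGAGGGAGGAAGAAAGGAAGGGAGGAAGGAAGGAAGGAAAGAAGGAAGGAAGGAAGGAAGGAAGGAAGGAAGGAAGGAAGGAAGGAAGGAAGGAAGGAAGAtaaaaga
Intronic peak of Mef2c named for C130071C03Rik, chr13:83793683-83793882: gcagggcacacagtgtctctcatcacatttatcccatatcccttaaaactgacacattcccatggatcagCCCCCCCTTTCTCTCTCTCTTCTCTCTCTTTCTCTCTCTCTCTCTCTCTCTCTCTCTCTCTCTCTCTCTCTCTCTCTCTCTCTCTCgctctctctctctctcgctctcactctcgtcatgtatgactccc
Mef2a peak 83.7 kb upstream, chr7:74601310-74601509: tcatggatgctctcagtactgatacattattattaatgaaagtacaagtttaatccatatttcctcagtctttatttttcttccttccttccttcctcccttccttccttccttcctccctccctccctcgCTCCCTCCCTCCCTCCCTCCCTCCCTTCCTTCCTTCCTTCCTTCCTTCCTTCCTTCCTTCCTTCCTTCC
Mef2d peak 13.2 kb upstream, chr3:87932957-87933156: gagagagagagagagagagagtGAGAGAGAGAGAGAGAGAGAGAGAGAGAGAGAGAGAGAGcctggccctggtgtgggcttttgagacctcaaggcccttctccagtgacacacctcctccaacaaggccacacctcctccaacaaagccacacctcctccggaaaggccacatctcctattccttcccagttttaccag
Peak 12.2 kb upstream of Myocd named for Gm12295, chr11:65095571-65095770: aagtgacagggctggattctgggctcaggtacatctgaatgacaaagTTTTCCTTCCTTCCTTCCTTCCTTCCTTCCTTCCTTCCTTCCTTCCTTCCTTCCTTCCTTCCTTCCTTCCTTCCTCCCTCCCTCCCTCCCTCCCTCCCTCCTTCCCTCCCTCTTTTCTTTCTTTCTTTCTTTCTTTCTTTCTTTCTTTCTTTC

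A run was counted when it was at least 25 bp long. Such a run lay within 100 bp of the midpoint of all 15 peaks (100%, 95% Wilson interval 79.6 to 100%), against 45440 of the 48295 peaks of the list (94.1%). Only 3.33% of the windows placed 1 kb to either side of the 15 peaks held one, against 3.95% for the whole list. The longest run of the peak had a median of 153 bp for the 15 peaks and 108 bp for all peaks, and it reached 100 bp in 12 of 15 (80.0%, interval 54.8 to 93.0%) and in 54.8%. The run covered a median of 28.3% of the peak for these genes and 23.8% for the list. The runs were therefore a property that these peaks shared with nearly the whole list, and whether the repeats or Isl1 brought these regions into the list was not tested. The intervals cover counting error only, and peaks of 1 gene share a locus and are not replicates.

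**Figure D1:**
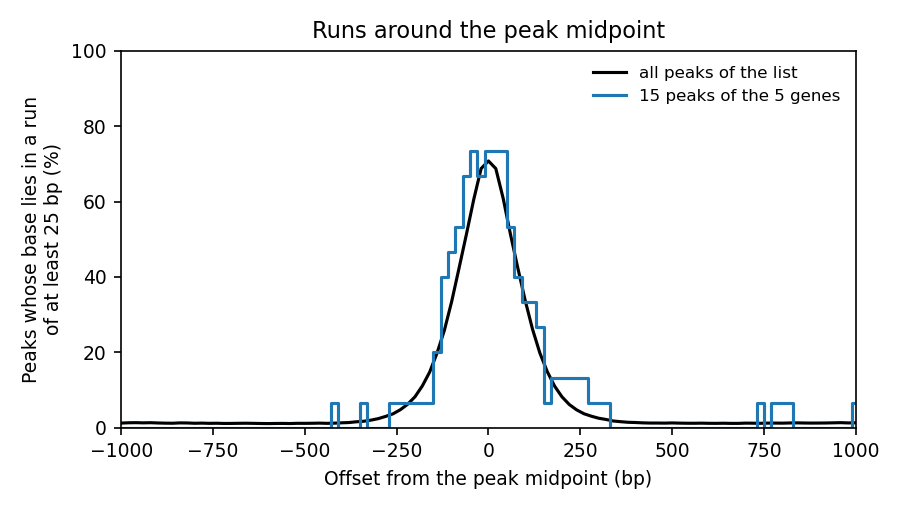
Percent of peaks (y axis) whose base at each offset from the peak midpoint (x axis, bp) lies in a purine or pyrimidine run of at least 25 bp, for all peaks (black) and for the 15 peaks of the regulators (blue). Both lines top out near the midpoint, where 70.77% of all peaks and 11 of the 15 peaks lay in a run, and at 200 bp to either side the share over all peaks was 8.24%.

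The number of peaks differed widely between the 5 genes. Mef2c had 8 peaks, Mef2a had 5, Mef2d and Myocd had 1 each, and Srf had none. Over the 12972 genes named in the list the median was 2 peaks and 39.8% of the genes had a single one. As many as 1272 genes had more peaks than Mef2c, and 2305 had more than Mef2a. Among 22238 protein-coding genes of the annotation, 45.5% had at least 1 peak, 9.57% had 5 or more and 4.96% had 8 or more, whereas 4, 2 and 1 of the 5 regulators did.

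**Figure D2:**
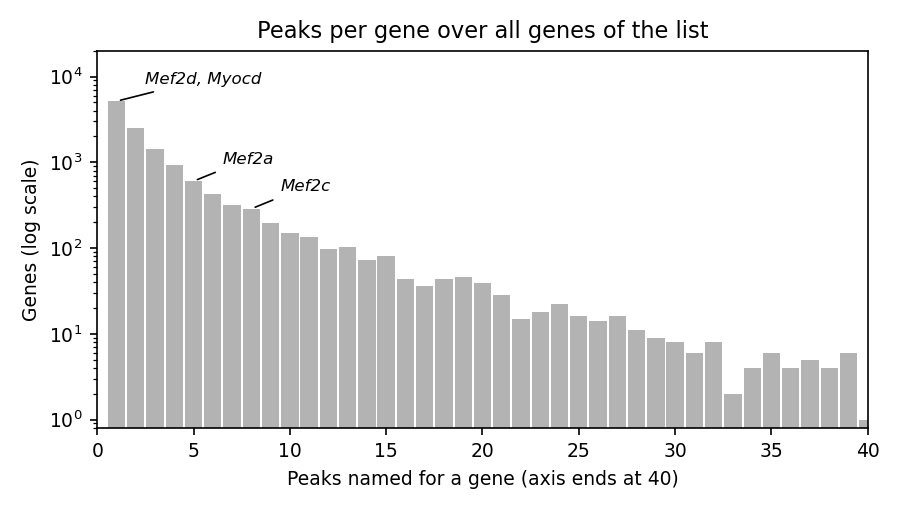
Number of genes (y axis, log scale) with each number of peaks (x axis, drawn up to 40) over all genes named in the list, with the 4 regulators that had a peak marked. Mef2d and Myocd stand in the bar of genes with 1 peak, and Mef2a with 5 and Mef2c with 8 stand to its right, well short of the highest count of 85.

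None of the 15 peaks lay close to a promoter. Within 10 kb of the TSS there were 0 of 15 peaks, which allows a share of up to 20.0%, against 15.9% of all peaks. Likewise 0 of the 5 genes had a peak that near, against 22.6% of protein-coding genes. Within 100 kb lay 8 of the 15 peaks (53.3%) against 62.5% of all peaks, and 4 of the 5 genes had one there, against 44.9% of protein-coding genes. Mef2c set the first of these shares, with 2 of its 8 peaks within 100 kb (25%), whereas 6 of the 7 peaks of the other genes were (85.7%), above the share of the list. The median distance was 96.5 kb for the 15 peaks and 58.8 kb for the list, and it fell to 49 kb without the Mef2c peaks.

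Most of the peaks were placed upstream and between genes. Upstream of the TSS lay 13 of 15 (86.7%, Wilson interval 62.1 to 96.3%) against 47.5% of all peaks. All 8 Mef2c peaks were upstream, and of the other 7 peaks 5 were (71.4%, interval 35.9 to 91.8%). Peaks of the same gene share a locus and are not replicates, so neither interval tests a difference from the list. The upstream share of Mef2c also depended on the naming of peaks. Downstream peaks whose closest protein-coding TSS was that of Mef2c were named for C130071C03Rik, Mir9-2 or 2810049E08Rik. Intergenic sequence held 13 peaks (86.7%), or 5 of 7 without Mef2c (71.4%), against 63.5% for the list, introns held 2 peaks (13.3%) against 32.5%, and no peak touched an exon, against 4.0%. Counting any peak that overlapped the gene body, whichever gene the list named, 3 of the 5 genes (Mef2a, Mef2c and Myocd) had one, against 28.8% of protein-coding genes.

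**Figure D3:**
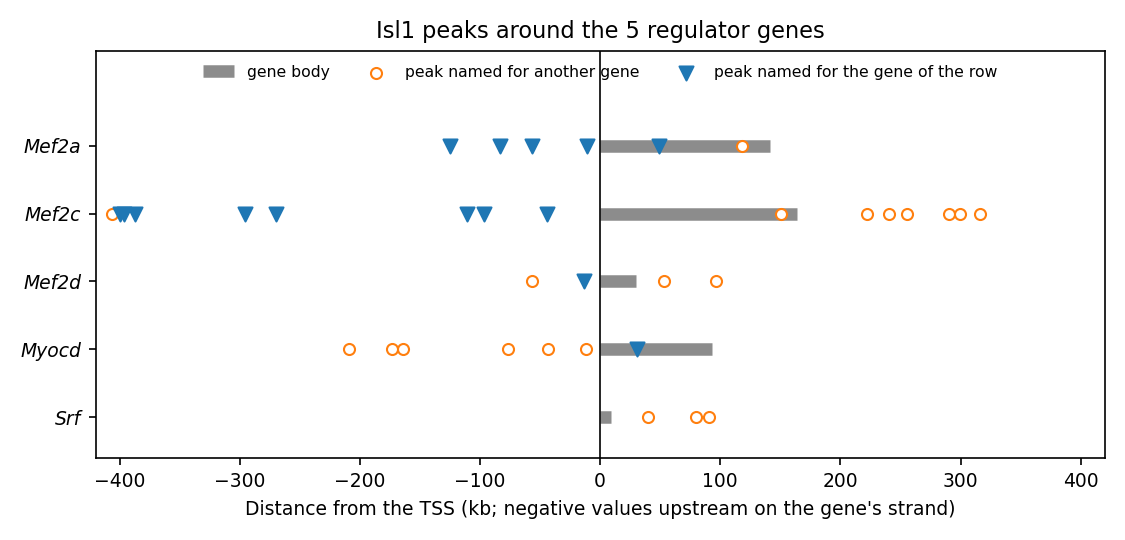
Distance of each Isl1 peak from the TSS (x axis, kb, negative upstream on the strand of the gene, drawn to 420 kb) for the 5 genes (rows). Blue triangles are peaks named for the gene, open orange circles are peaks named for another gene that lie within 100 kb of the TSS, over the gene body or closest to the gene's TSS among protein-coding genes, and grey bars are gene bodies. The closest blue triangle of any gene is 11.1 kb from its TSS, Mef2c has triangles on the upstream side only, and Srf has none.

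Mef2c encodes the Mef2 protein of the early heart and is required for growth of the right ventricle. The gene (NM_025282, + strand) spans chr13:83643033-83806684, and its 8 peaks were all upstream and intergenic, over 355.5 kb. The nearest lay 44.4 kb upstream (chr13:83598431-83598776, 345 bp wide, longest run 137 bp). A pair followed at 96.5 kb (chr13:83546271-83546720, 449 bp, run 169 bp) and 110.5 kb (chr13:83532199-83532926, 727 bp, run 206 bp). The latter was the widest peak of Mef2c and held the longest run of all 15 peaks.

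Another pair of Mef2c peaks lay at 269.9 kb (chr13:83372962-83373312, 350 bp, run 52 bp) and 295.2 kb (chr13:83347559-83348008, 449 bp, run 168 bp). The remaining 3 lay close together at 387.5 kb (chr13:83255337-83255706, 369 bp, run 57 bp), 396.0 kb (chr13:83246812-83247217, 405 bp, run 184 bp) and 399.9 kb (chr13:83242796-83243446, 650 bp, run 186 bp). In this group the nearest other peak was 3.89 to 8.51 kb away, and these were the only ones of the 15 peaks with another peak within 10 kb (20.0%, against 34.2% of all peaks). The short runs at 269.9 and 387.5 kb were GA dinucleotide repeats that adjoined a stretch of alternating purine and pyrimidine, as the window printed for the peak at 269.9 kb shows. In 7 of the 8 Mef2c peaks (87.5%, Wilson interval 52.9 to 97.8%) the purine strand of the run was the + strand, which is the strand of the gene. The + strand was the purine strand in 50.0% of all peaks, and in 4 of the 7 peaks of the other genes (57.1%). This share also depended on the naming of peaks. Another 20 peaks had the Mef2c TSS as their closest protein-coding TSS but carried another gene's name. In most of these the longest run in the midpoint window was of pyrimidines on the + strand.

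The anterior heart field enhancer of Mef2c lies a few kilobases upstream of one of its start sites, but its coordinates are not given in the sources used here. All annotated start sites were examined instead. They were 83643033 and 83663976 in GENCODE, and 83643033, 83662655 and 83712765 from RefSeq promoter sequences, each of which matched mm9 once. No peak of the list, whichever gene it was named for, lay within 10 kb of any of them. The closest upstream peak was the one 44.4 kb from the first start site, which put it 64.1 kb from 83662655, 65.4 kb from 83663976 and 114.2 kb from 83712765. The interval without any peak around these start sites measured 194.8 kb and ran from the upstream peak to an intronic peak (chr13:83793592-83793975, 383 bp wide, longest run 86 bp) 150.8 kb downstream of the first start site. This intronic peak lies inside Mef2c but was named for the neighbour C130071C03Rik, whose start is 73.9 kb away. GENCODE annotates C130071C03Rik as noncoding, whereas the list carries it under the mRNA entry NM_177100. The interval held 29 runs that were 25 bp or longer, 2 of them of at least 100 bp and the longest of 301 bp, and none lay under a peak. The list thus contained no Isl1 peak in the neighbourhood of a Mef2c start site, which without depth or input values does not show that Isl1 was absent there.

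Mef2c stands in a very large intergenic region, with Cetn3 1706.9 kb away on one side and Tmem161b 555.2 kb away on the other. The stretch in which its TSS is the closest of any protein-coding gene, here called the territory, measured 1230.3 kb, at percentile 99 in size of protein-coding genes. It held 28 peaks. Of these, 8 were named for Mef2c, 13 for Mir3961, 4 for Mir9-2, 2 for C130071C03Rik and 1 for 2810049E08Rik, so that 20 peaks went to noncoding or uncharacterized neighbours. Of these 20, 7 lay downstream of the Mef2c TSS, and the upstream side of the territory held the peaks named for Mef2c and Mir3961. The 13 peaks of Mir3961 lay 406.7 to 825.0 kb upstream of Mef2c. Per length, the Mef2c territory held 22.8 peaks per Mb, against 18.2 peaks per Mb over the genome and a median of 9.96 peaks per Mb over the territories of protein-coding genes, those without a peak included.

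Mef2a encodes the Mef2 protein found in the most tissues and is prominent in the postnatal heart. The gene (NM_001033713, - strand) spans chr7:74376049-74517744, and 4 of its 5 peaks were upstream. The closest lay 11.1 kb upstream (chr7:74528482-74529109, 627 bp wide, longest run 174 bp), the shortest distance of the 15 peaks. Further out lay peaks at 57.1 kb (chr7:74574625-74575111, 486 bp, run 125 bp), 83.7 kb (chr7:74601273-74601547, 274 bp, run 107 bp) and 124.8 kb (chr7:74642252-74642823, 571 bp, run 180 bp). The farthest of them was closer to the start of Lrrc28 among protein-coding genes of the annotation. The fifth peak lay in a Mef2a intron 49 kb downstream of the TSS (chr7:74468426-74469144, 718 bp, run 131 bp).

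A further peak in a Mef2a intron was named for Lysmd4, the neighbouring gene on the other side. It lay 118.3 kb downstream of the Mef2a TSS (chr7:74399139-74399748), was 609 bp wide and held a run of 533 bp, longer than any run in the 15 peaks. The territory of Mef2a measured 216.3 kb and held 18.5 peaks per Mb, close to the value of the whole genome. In this territory all 4 runs of at least 100 bp lay under a peak.

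Mef2d, another Mef2 family member with broad expression, had a single peak 13.2 kb upstream of the TSS (NM_133665, + strand, gene at chr3:87946294-87976008). The peak (chr3:87932800-87933315) was 515 bp wide, and its longest run of 50 bp, a GA repeat, was the shortest of the 15 peaks and shorter than in most peaks of the list (percentile 8.45). Within 100 kb of the Mef2d TSS lay 3 more peaks, named for Iqgap3, 1700113A16Rik and Rhbg.

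Myocd, which encodes myocardin, had a single peak in an intron 30.7 kb downstream of the TSS (NM_145136, - strand, gene at chr11:64990063-65083491). It was the widest of the 15 peaks (chr11:65052421-65053149, 728 bp, percentile 93.0 of the list), and its longest run measured 153 bp. The territory of Myocd held 6 more peaks, all named for Gm12295, an adjacent noncoding gene. They lay 12.2, 43.1, 77.1, 163.9, 173.4 and 208.8 kb upstream of the Myocd TSS. The nearest of them (chr11:65095509-65095833, 324 bp, run 195 bp) was therefore closer to the Myocd TSS than the peak that carried the name of Myocd.

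Srf, the partner of myocardin, had no peak in the list. Its territory was short at 41.5 kb (gene at chr17:46683788-46693111, - strand), near the median of 45.7 kb for protein-coding genes, and lay between Cul9 and Ptk7, which had no peak either. The nearest peak was 40.1 kb downstream of the Srf TSS and was named for Dnph1, and 2 peaks of Ttbk1 followed at 79.9 and 90.4 kb. The interval without a peak around the TSS measured 206.5 kb and held 40 runs, 4 of them of at least 100 bp. Within the Srf territory there were 8 runs, none longer than 61 bp.

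Together the territories of the 5 genes covered 1.89 Mb and held 41 peaks, or 21.7 peaks per Mb. A run lay at the midpoint window of 40 of these 41 peaks (97.6%). Counted by the closest protein-coding TSS, the number of peaks rose with the size of the territory, from 0 in 41.5 kb for Srf over 2 in 87.7 kb for Mef2d, 4 in 216.3 kb for Mef2a and 7 in 310.9 kb for Myocd to 28 in 1230.3 kb for Mef2c. The peaks named for the genes did not keep this order, since Myocd had 1 and Mef2a had 5. The densities of the 4 genes with a peak, between 18.5 and 22.8 peaks per Mb, were near or above the genome value of 18.2, and that of Srf was 0. All 4 were above the median territory of protein-coding genes, but that median includes genes without a peak and these 4 do not. In the territories, 48.2% of the runs of at least 100 bp lay under a peak (27 of 56), against 49.3% in the genome. For runs of 50 to 99 bp the shares were 22.7% and 21.1%, and for runs of 25 to 49 bp they were 6.43% and 4.63%. Long runs were under peaks more often than short ones in both, and the territories of the regulators differed little from the genome.

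**Figure D4:**
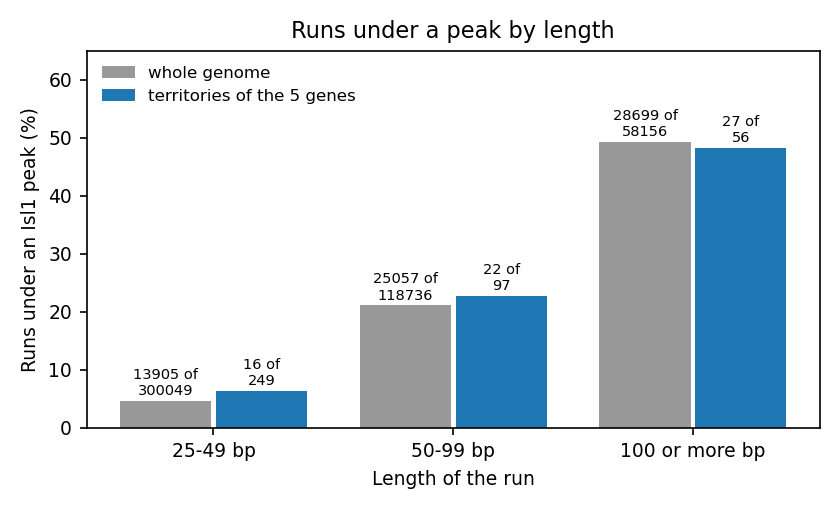
Percent of the runs whose midpoint lies in an Isl1 peak (y axis) by the length of the run (x axis), for the whole genome (grey) and for the territories of the 5 regulators (blue), with the number of runs above each bar. The share rises from 6.43% to 48.2% in the territories and from 4.63% to 49.3% in the genome.

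In width the 15 peaks resembled the list, with a median of 486 bp against 466 bp. The Mef2c peaks had a median of 427 bp and the other 7 peaks one of 571 bp. The narrowest was the Mef2a peak at 83.7 kb with 274 bp, at percentile 0.577 of all peaks. GC content had a median of 44.0% in the 15 peaks and 45.6% in the list.

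**Figure D5:**
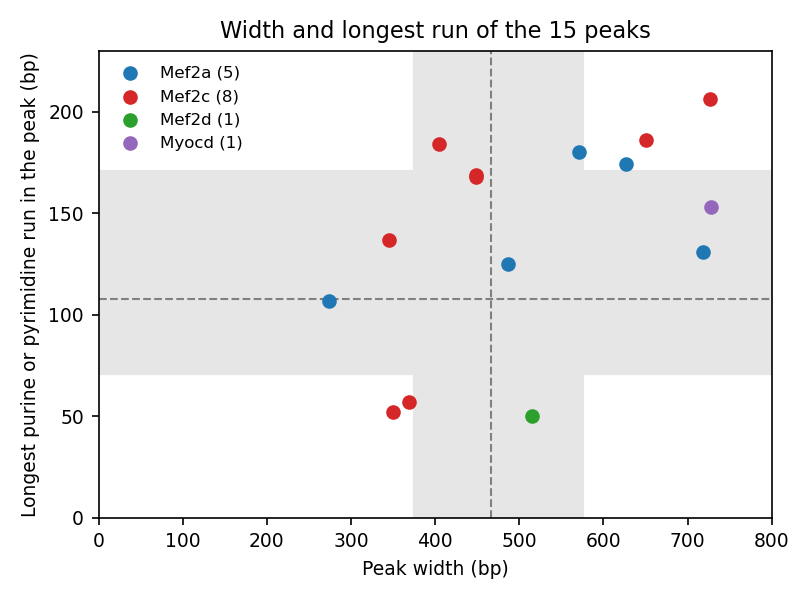
Width (x axis, bp) and longest purine or pyrimidine run (y axis, bp) of the 15 peaks, coloured by gene with the number of peaks in brackets. Dashed lines are the medians over all peaks (466 and 108 bp) and grey bands span their quartiles (375 to 576 bp and 71 to 171 bp). The widths run from 274 to 728 bp, and 3 peaks with runs of 50 to 57 bp stand below the others.

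Short motifs were counted on both strands in the whole peak and within 100 bp of the midpoint. TAAT, the core recognized by many homeodomain proteins, was present in 12 of the 15 peaks (80.0%, against 82.8% of all peaks) and within 100 bp of the midpoint in 2 (13.3%, against 35.3%). These were the Mef2a peak at 83.7 kb and the Myocd peak. GATA was found in 14 peaks (93.3%, against 78.7%) and near the midpoint in 5 (33.3%, against 34.0%), of which 4 belonged to Mef2c. The E-box CANNTG was present in 13 peaks (86.7%, against 76.8%) and near the midpoint in 4 (26.7%, against 30.0%). The Nkx2-5 core AAGTG was present in 6 peaks (40%, against 53.2%) and near the midpoint in 2 (13.3%, against 16.8%). With 15 peaks these shares are rough, and their differences from the list were not tested. A match is a description of the letters and not a bound site.

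The elements of Srf and of the Mef2 proteins themselves were rare in these peaks and in the whole list. No peak of the 5 genes held a CArG box, which allows a share of up to 20.0%, against 1.78% of all peaks. A MEF2 site was found in 1 of the 15 peaks (6.67%, against 5.8% of all peaks), namely the Mef2a peak at 83.7 kb, with 2 matches. Both lay in the A/T-rich flank of the run and overlapped 6 of the 7 TAAT matches of the peak. The stretch is shown with the matches in capitals.
MEF2 site matches of the Mef2a peak 83.7 kb upstream, chr7:74601257-74601365: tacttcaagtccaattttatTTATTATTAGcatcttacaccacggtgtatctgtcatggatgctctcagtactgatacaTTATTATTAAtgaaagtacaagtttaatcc

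Other genes of the Mef2 and Srf pathway were read from the same list as 47 genes in 6 groups. Of these, 22 had a peak (46.8%), close to the 45.5% of protein-coding genes, and 11 had one within 10 kb of the TSS (23.4%, against 22.6%). They held 115 peaks, of which 94.8% had a run near the midpoint.

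Among 7 further Mef2 and Srf regulators, Mkl2 had 1 peak and Elk3, an Ets-domain partner of Srf, had 2, and Mef2b, Mkl1, Mamstr, Elk1 and Elk4 had none. Class IIa deacetylases repress Mef2 proteins, and 3 of the 4 had peaks. Hdac9 had 13, Hdac4 had 10 and Hdac7 had 3. The closest Hdac4 peak lay 0.307 kb from the TSS and held no run longer than 12 bp, and that of Hdac7 lay 2.92 kb upstream. Of 6 kinases that act on Mef2 or its deacetylases, Prkd1 had 15 peaks and Camk2d had 2. The closest Prkd1 peak overlapped an exon 0.11 kb from the TSS and held no run longer than 9 bp.

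Of 8 upstream regulators and partners, Isl1 itself had 33 peaks, the most of the 47 genes, with the closest 3.74 kb upstream. Hopx, an inhibitor of Srf, had 3 peaks with the closest 4.03 kb away. Fhl2, a LIM-domain cofactor, also had 3, with the closest 4.02 kb away. Nkx2-5 had 4 peaks and Tbx20 had 3, and Gata4, Foxh1 and Smyd1 had none.

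Srf targets had a peak in 5 of 15 cases (33.3%, against 45.5% of protein-coding genes). Cnn1 and Myh11, which encode contractile proteins of smooth muscle, had the closest ones at 5.08 kb and 5.7 kb, and Vcl, Fos and Cyr61 had peaks farther away. The actin genes Acta1, Acta2, Actc1 and Actg2 had none, and neither had Tagln, Myl9, Des, Nppa, Egr1 or Junb. Mef2 targets had a peak in 5 of 7 cases (71.4%, against the same 45.5%). Territories of the Srf and Mef2 targets ran from 3.76 kb for Ckm to 289.2 kb for Jun, and the counts were not adjusted for territory size. Jun had the most with 6, and the closest were those of Klf2 at 0.68 kb, Myl2, the ventricular myosin light chain gene, at 1.35 kb and Tdgf1 at 3.24 kb. Xirp1 had 1 peak, and Ckm and Nr4a1 had none.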

How the data were processed

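The deposited file listed Isl1 peaks of 1 ChIP sample as positions and distances in bp with the name of a gene, a unit of its own with no counts. According to the methods and the submitters' processing notes, the authors used Bowtie2 for alignment to mm9, Picard 1.136 against PCR duplicates and MACS for peak calling. They dropped blacklisted regions and named each peak for the gene with the nearest TSS. Per the methods, areas shared by replicates were found with Bedtools. Whether this step was applied to the deposited embryo list is not stated. A repeated header within the list was left out.

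The 5 genes and the pathway lists were chosen with earlier results of these data known. Genes outside the 5 were named for a peak at most 10 kb from the TSS, or if they had the most peaks of their list or adjoined a member. Others were named after their values were seen. Sequences, start sites, exons and territories came from the NCBIM37 genome, the assembly of mm9, and GENCODE vM1. All 5 symbols and all 47 list genes matched. RefSeq promoter sequences (GRCm38.p6) of Mef2c were placed on mm9 by exact match. The sequences of some peaks are not reported here. Peaks and gene bodies shared at least 1 bp to overlap. A run was counted as under a peak when the midpoint of the run lay in the peak. Wilson intervals (95%) and limits for 0 (3 counts) cover counting error only. The run and motif searches and the closest-start assignment were tested on simulated data. Python 3.11.15, pandas 2.3.3, numpy 2.4.6, scipy 1.17.1 and matplotlib 3.10.9 were used.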

Additional observations from a re-analysis of the deposited data

How the results depend on the processing

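The count of 15 peaks depended on how peaks were given to genes. It became 0 within 10 kb of the TSS, 8 within 100 kb, 8 for peaks wider than the list median, 0 for peaks without a run, 41 by the closest protein-coding TSS of the annotation and 4 over the gene bodies. The 4 genes with a peak became 0 within 10 kb and 0 without a run, and were 3 or 4 in the other settings. The 22 pathway genes became 11 within 10 kb and 6 without a run. Runs of at least 40 bp lay near the midpoint of 93.3% of the 15 peaks. In settings chosen after seeing the data, 17 peaks of any gene lay within 100 kb of the 5 TSSs, the median distance was 49 kb without Mef2c and 53.0 kb for the wider peaks, and the density was 7.95 peaks per Mb when only peaks named for the 5 genes were counted. These moves follow from which peaks each setting counts. No paired analysis was possible because the list came from 1 ChIP sample. Peak heights, read depth and input values were not analysed here, so a gene without a peak is not shown to be unbound.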
